A study of Mus musculus with 72 samples.

Results

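A set of 10 genes of senescence and cell cycle arrest was followed in mouse models of acute promyelocytic leukaemia (APL) treated with retinoic acid (RA). The set was chosen by gene name and comprised the 4 INK4 genes Cdkn2a, Cdkn2b, Cdkn2c and Cdkn2d, the Cip/Kip genes Cdkn1b and Cdkn1c, the pocket protein genes Rb1, Rbl1 and Rbl2, and the lamin gene Lmnb1. Earlier results of these data were known at that choice. All 10 had a probe set with exactly 1 gene symbol, and they are 10 of the 19938 genes measured. Where a gene had several such probe sets, the brightest stood for it, which concerned Cdkn1b alone among the 10. The measurements were made on bone marrow of leukaemic mice with 72 Affymetrix Mouse Gene 1.0 ST arrays, 36 of a transgenic model and 36 of a viral transduction model, in 16 groups. In the transgenic model the driver was PML/RARA (8 RA and 4 untreated arrays at 6 h, and again at 12 h) or PLZF/RARA (4 RA and 2 untreated arrays at each time), both on a wild type background. The viral leukaemias, all driven by PML/RARA, were labelled Pml null or Pml wild type, each with 8 RA and 4 untreated arrays at 6 h and 4 RA and 2 untreated arrays at 12 h. The RA dose, the promoters that drive the fusions and the age of the mice were not stated in the labels. Nothing states that a group's arrays are from different mice, and p-values then measure only array-to-array spread, which may be technical.

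INK4 proteins bind the kinases Cdk4 and Cdk6 and keep them from pairing with D-type cyclins. Cip/Kip proteins inhibit complexes of Cdk2 with cyclins E and A. Both kinds of inhibitor leave the pocket proteins unphosphorylated, so that these stay bound to E2F factors and hold down the genes of DNA replication. Loss of lamin B1, a protein of the nuclear lamina, is a widely used mark of senescent cells, and APL cells exposed to RA are known for leaving the cell cycle as they mature into granulocytes.

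Values are log2 levels as deposited, and a change is a difference of log2 levels with its standard error from a linear model (limma) of all 36 arrays of a model with batch as a term. A gene was called when its Benjamini-Hochberg adjusted p over all 19938 genes was below 0.05. RA changed the 10 genes unevenly. In transgenic PML/RARA leukaemia 2 of the 10 rose and 1 fell at 6 h, where 5.81% of all genes rose and 8.54% fell. At 12 h 2 rose and 3 fell, where 9.88% of all genes rose and 11.7% fell. In PLZF/RARA leukaemia 1 rose and 0 fell at 6 h, against 1.45% and 0.747% of all genes.

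At 12 h none of the 10 was called by limma in PLZF/RARA leukaemia (2 had an unadjusted p below 0.05), where 2.46% of all genes rose and 1.57% fell. In the viral leukaemia labelled Pml null 1 rose and 2 fell at 6 h (4.97% and 6.38% of all genes), and 1 rose and 0 fell at 12 h (4.22% and 1.83%). In the Pml wild type leukaemia 1 rose and 0 fell at 6 h (5.44% and 4.44%), and likewise at 12 h (3.03% and 3.07%). The rise counted in each of these comparisons was that of Cdkn2d, joined in transgenic PML/RARA by Cdkn1c. The median change of the 10 genes lay between -0.12 and 0.19 over the 8 RA effects, and the median of all genes between -0.05 and 0.06. The split of all called genes depended on scaling in 2 comparisons. After another quantile normalization 49.3% of the called genes were higher in PLZF/RARA at 6 h, against 66.1% in the values as deposited, and 58.6% in Pml null at 12 h, against 69.8%.

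**Figure D1:**
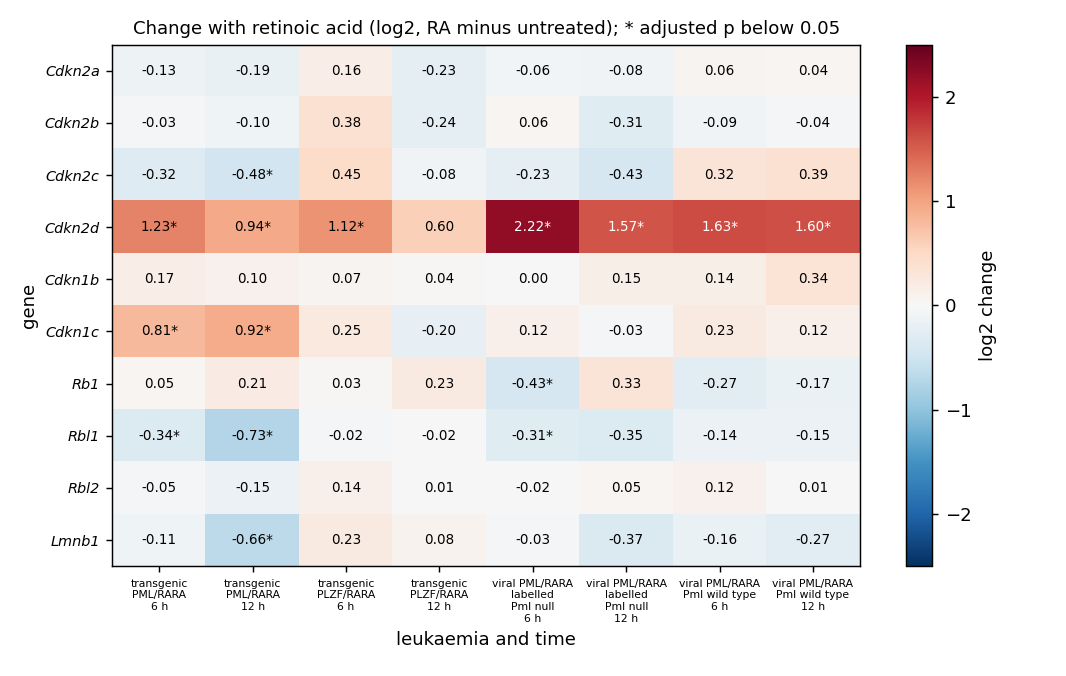
Change with RA (log2 level on RA arrays minus untreated arrays) of the 10 genes, 1 row per gene and 1 column per leukaemia and time. Colour and number give the change, and an asterisk marks an adjusted p below 0.05. Cdkn2d is positive in all 8 columns, from 0.60 to 2.22, and Cdkn1c is marked in both transgenic PML/RARA columns.

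The labels were set against the arrays first. Mpo, Elane, Prtn3, Ctsg, Calr and Cst7, genes of promyelocyte granules and their assembly, were bright on all 72 arrays, the dimmest value being 9.93 for Prtn3. Ms4a3, another promyelocyte marker, was an exception: its levels ran from 5.76 to 7.19 on the 18 arrays labelled Pml null, against 11.69 to 12.63 on the 18 viral Pml wild type arrays. Pml itself did not separate these groups, with 9.08 to 10.22 on the arrays labelled Pml null and 9.20 to 10.23 on Pml wild type arrays. Its untreated difference was -0.04 ± 0.13 (limma, adjusted p = 0.916). Which part of Pml was deleted, and where the probe set lies, were not stated in the labels, so this probe set may lie outside it, and the group is called labelled Pml null. The transgenic and viral arrays share no batch and were compared only within a model. In bulk marrow, fewer cells of a type and less RNA per cell cannot be told apart.

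Cdkn2d, the INK4 inhibitor p19Ink4d, which is expressed in maturing myeloid cells, had higher mean levels with RA in all 4 leukaemias at both times, and the rise was called in 7 of these 8 comparisons. In transgenic PML/RARA at 6 h its lowest, median and highest levels were 8.24, 9.07 and 9.46 on RA arrays, against 8.12, 7.77, 7.80 and 7.58 on the untreated arrays. At 12 h they were 7.92, 8.59 and 8.89 on RA arrays, against 7.29, 7.53, 7.91 and 7.57 on untreated arrays. At both times all RA arrays lay above all untreated arrays, narrowly so at 12 h. Cdkn2d rose by 1.23 ± 0.16 at 6 h (2.35-fold, adjusted p = 8.65e-07) and by 0.94 ± 0.16 at 12 h (1.92-fold, adjusted p = 2.24e-05). Within batches the 6 h change was 1.21 in batch 1 and 1.27 in batch 2.

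In PLZF/RARA leukaemia Cdkn2d stood at 8.41, 8.24, 8.48 and 7.96 on RA arrays at 6 h, against 7.13 and 7.18 on untreated arrays. Its 12 h levels were 7.92, 8.26, 7.90 and 7.97 on RA arrays, against 7.32 and 7.51 on untreated arrays. Here too the groups did not overlap. The 6 h rise of 1.12 ± 0.22 was called (2.17-fold, adjusted p = 0.00371), but with only 1 of the 2 untreated arrays its adjusted p was 0.124 (change 1.09, without untreated replicate 1) or 0.0707 (1.14, without untreated replicate 2). The 12 h change of 0.60 ± 0.22 was not called (adjusted p = 0.146). PML/RARA and PLZF/RARA leukaemias were not shown to differ in this response: the difference averaged over both times was 0.23 ± 0.20 (95% interval -0.17 to 0.63, adjusted p = 0.591).

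In the viral leukaemia labelled Pml null, Cdkn2d at 6 h had lowest, median and highest levels of 8.96, 9.29 and 9.89 on RA arrays, against 7.18, 7.27, 7.01 and 6.99 on untreated arrays. Its 12 h levels were 8.48, 9.62, 7.87 and 9.05 on RA arrays, against 7.06 and 7.32 on untreated arrays. The 4 RA arrays at 12 h spread over more than a log2 unit, yet all lay above both untreated arrays. The rises were 2.22 ± 0.19 at 6 h (4.67-fold, adjusted p = 2.27e-10) and 1.57 ± 0.26 at 12 h (2.97-fold, adjusted p = 0.000152). A fit of only the arrays of the groups compared at 12 h gave the same change with an adjusted p of 0.106.

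In the viral Pml wild type leukaemia Cdkn2d at 6 h had lowest, median and highest levels of 9.00, 9.14 and 9.22 on RA arrays, against 7.70, 7.69, 7.47 and 7.10 on untreated arrays. Its 12 h levels were 8.89, 8.95, 9.14 and 9.53 on RA arrays, against 7.61 and 7.43 on untreated arrays. The 8 RA arrays at 6 h lay within 0.22 of each other. The rises were 1.63 ± 0.19 at 6 h (3.10-fold, adjusted p = 1.69e-07) and 1.60 ± 0.26 at 12 h (3.04-fold, adjusted p = 0.000188). In batches 3 and 4 the 6 h change was 2.30 and 2.15 in the leukaemia labelled Pml null, and 1.79 and 1.48 in the Pml wild type leukaemia. The difference between the Pml backgrounds, averaged over both times, was 0.28 ± 0.23 (95% interval -0.19 to 0.75, adjusted p = 1.00). Among untreated arrays Cdkn2d was not called between the fusions (0.34 ± 0.16, adjusted p = 0.139) or between the Pml backgrounds (-0.36 ± 0.19, adjusted p = 0.215). The first was called in 1 of 11 other settings, a fit of only the groups compared (0.35, adjusted p = 0.0415). The second was called in 2 of 11, that fit (-0.36, adjusted p = 0.00391) and array weights (-0.36, adjusted p = 0.0379).

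**Figure D2:**
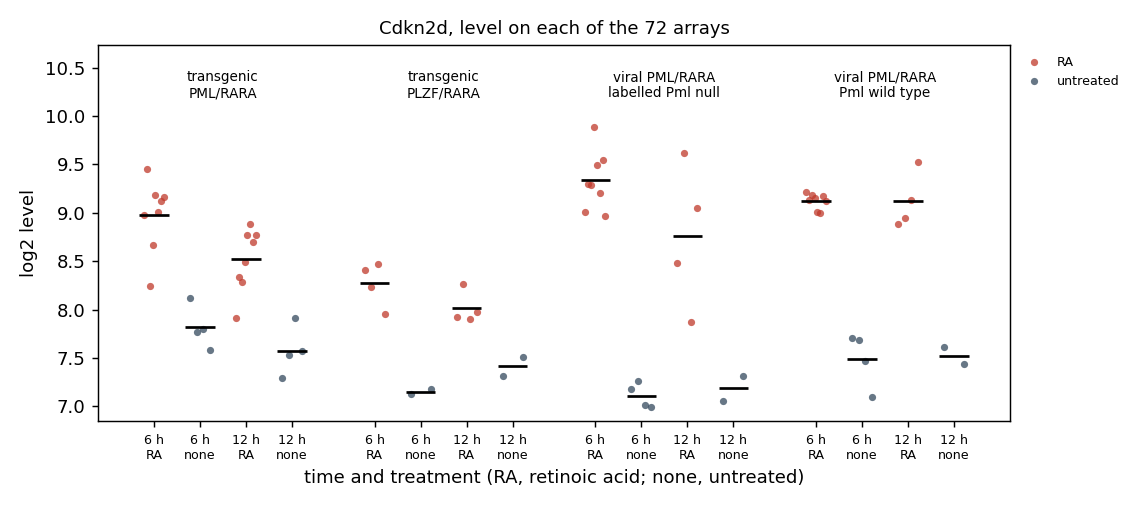
Cdkn2d log2 level on each of the 72 arrays, by leukaemia, time and treatment. Points are arrays and black lines group means. In each of the 8 pairs the RA arrays sit above the untreated arrays, with the widest gap in the viral leukaemias at 6 h.

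Cdkn2c, the INK4 inhibitor p18Ink4c, which restrains the cycling of blood progenitors, followed another pattern: its level differed between the leukaemias before treatment, and its RA effect differed between the fusions and between the Pml backgrounds. Among untreated arrays its lowest, median and highest levels were 8.55, 9.16 and 9.49 in PML/RARA, against 8.19, 8.01, 8.39 and 8.16 in PLZF/RARA. They were 8.09, 8.46 and 8.82 in the viral leukaemia labelled Pml null, against 9.14, 9.32 and 9.42 in the Pml wild type leukaemia. Neither pair of groups overlapped. The untreated difference was 0.84 ± 0.15 between PML/RARA and PLZF/RARA (1.79-fold, adjusted p = 5.61e-05) and -0.84 ± 0.13 between Pml null and wild type (1.78-fold lower, adjusted p = 5.34e-06). The difference between the fusions was 0.54 at 12 h alone (adjusted p = 0.0790).

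With RA, Cdkn2c in transgenic PML/RARA had lowest, median and highest levels of 8.68, 9.01 and 9.17 on RA arrays at 6 h, against 9.49, 9.27, 9.24 and 9.31 on untreated arrays. At 12 h these were 7.81, 8.45 and 8.69 on RA arrays, against 8.55, 8.83, 9.08 and 8.79 on untreated arrays. The groups were apart at 6 h and overlapped at 12 h. The 6 h change of -0.32 ± 0.15 was not called (adjusted p = 0.189). It was called in 2 of 10 other settings, a fit of only the groups compared (-0.32, adjusted p = 0.0164) and array weights (-0.30, adjusted p = 0.0298). Cdkn2c fell by 0.48 at 12 h (SE 0.15, 1.40-fold lower, adjusted p = 0.0166). Without untreated replicate 3 at 12 h this change was -0.39 with an adjusted p of 0.101. In PLZF/RARA the changes were 0.45 ± 0.21 at 6 h and -0.08 ± 0.21 at 12 h, neither called (adjusted p = 0.321 and 0.891).

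The RA effect on Cdkn2c was lower in PML/RARA than in PLZF/RARA by 0.59 on average over both times (-0.59 ± 0.18, adjusted p = 0.0445). That call was thin. It was lost at 6 h alone (-0.77, adjusted p = 0.139), at 12 h alone (-0.40, adjusted p = 0.503), in batch 1 alone (-0.61, adjusted p = 0.0790) and after another quantile normalization (-0.53, adjusted p = 0.0533). It was also lost in 18 of 36 refits that each left out 1 array (changes of -0.63 to -0.52, adjusted p from 0.0524 to 0.177). In PML/RARA these arrays were RA replicates 1, 6, 7 and 8 at 6 h, RA replicate 5 at 12 h, untreated replicates 1, 3 and 4 at 6 h and untreated replicates 2, 3 and 4 at 12 h. In PLZF/RARA they were RA replicates 1 and 3 at both times, both untreated replicates at 6 h and untreated replicate 2 at 12 h.

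In the viral model Cdkn2c at 6 h had lowest, median and highest levels of 7.91, 8.22 and 8.60 on RA arrays labelled Pml null, against 8.82, 8.53, 8.09 and 8.37 on their untreated arrays. In Pml wild type leukaemia these were 9.24, 9.67 and 9.89 on RA arrays, against 9.25, 9.42, 9.14 and 9.40 on untreated arrays. Both pairs overlapped. At 12 h the groups were apart, in opposite directions. On the arrays labelled Pml null the levels were 8.15, 8.11, 7.91 and 8.08 with RA, against 8.60 and 8.38 untreated. On Pml wild type arrays they were 9.48, 9.60, 9.81 and 9.89 with RA, against 9.39 and 9.23 untreated.

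None of these 4 changes was called on its own: -0.23 ± 0.13 and -0.43 ± 0.18 in the leukaemia labelled Pml null at 6 h and 12 h, and 0.32 ± 0.13 and 0.39 ± 0.18 in the Pml wild type leukaemia. Their difference was called, at -0.68 ± 0.16 averaged over both times (adjusted p = 0.0203). It was the only 1 of the 10 genes to differ in RA effect between Pml backgrounds, a comparison in which 0.752% of all genes had a higher and 0.381% a lower RA effect in the leukaemia labelled Pml null. The adjusted p of the difference was 0.108 in batch 3 alone (-0.66). It was 0.0919 without untreated Pml null replicate 1 at 12 h (-0.63) and 0.101 without untreated Pml wild type replicate 2 at 12 h (-0.64). Without Pml wild type RA replicate 3, the 6 h change in that leukaemia was 0.39 with an adjusted p of 0.0386, within a range of 0.27 to 0.39 and an adjusted p of up to 0.315 over the 12 refits that each left out 1 array. At 6 h alone and at 12 h alone the difference between Pml backgrounds was -0.55 (adjusted p = 0.330) and -0.81 (adjusted p = 0.342). With array weights the change labelled Pml null at 12 h (-0.44, adjusted p = 0.0406) and that in Pml wild type at 6 h (0.36, adjusted p = 0.0112) were called.

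**Figure D3:**
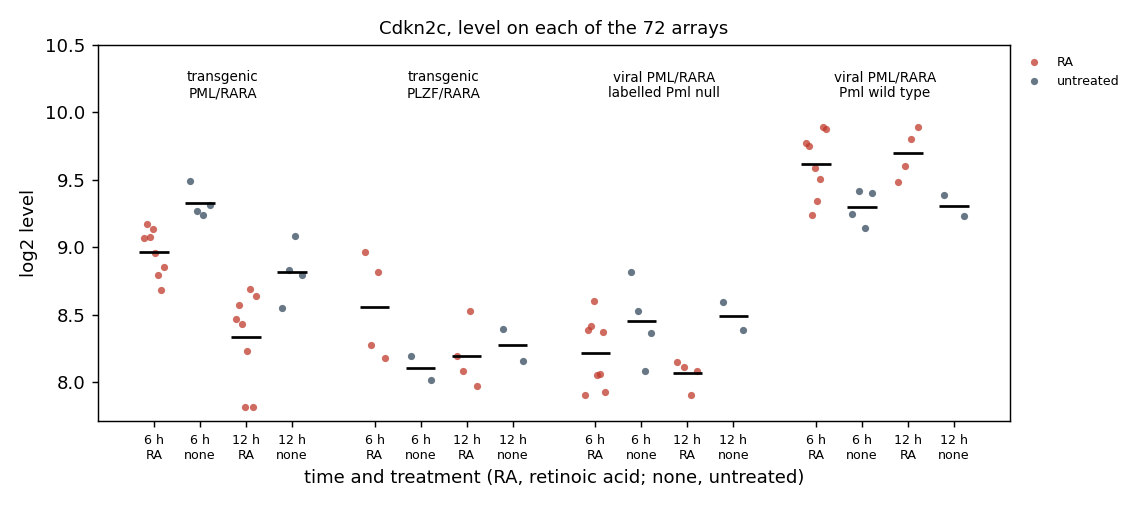
Cdkn2c log2 level on each of the 72 arrays, by leukaemia, time and treatment. Points are arrays and black lines group means. Untreated PML/RARA arrays lie above untreated PLZF/RARA arrays, and all 18 arrays labelled Pml null lie below all 18 viral Pml wild type arrays.

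Cdkn2a and Cdkn2b, neighbours on chromosome 4, sat near the median level of an array, and neither was called with RA in the fit as reported. Whether such levels, seen for untreated Cdkn1c too, lay above background was not tested. Cdkn2a encodes p16Ink4a and, in another reading frame, p19Arf, which protects p53 from Mdm2, and the single probe set was not tested for which of them it reads. Over all 72 arrays Cdkn2a ran from 6.81 to 7.86, and its 8 RA changes lay between -0.23 and 0.16. In transgenic PML/RARA at 12 h its change was -0.19 ± 0.08 (adjusted p = 0.0705). That adjusted p was 0.0477 without RA replicate 5 (-0.21) and 0.0350 without RA replicate 7 (-0.22), and it reached 0.229 over the 12 refits that each left out 1 array. The change was called in 2 of 9 other settings. These were another quantile normalization (-0.21, adjusted p = 0.0185) and array weights (-0.23, adjusted p = 0.0115).

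Among untreated arrays Cdkn2a had lowest, median and highest levels of 7.14, 7.23 and 7.38 in PML/RARA, against 7.49, 7.36, 7.68 and 7.65 in PLZF/RARA. They were 7.05, 7.21 and 7.41 in the leukaemia labelled Pml null, against 6.89, 6.93 and 7.05 in the Pml wild type leukaemia. The transgenic groups overlapped by a single pair of arrays, and the viral groups did not overlap. Cdkn2a was lower in PML/RARA by 0.28 (-0.28 ± 0.08, adjusted p = 0.00605) and higher in the leukaemia labelled Pml null by 0.25 ± 0.09 (adjusted p = 0.0403). The difference between the fusions was -0.11 at 6 h alone (adjusted p = 0.645) and -0.45 at 12 h alone (adjusted p = 0.00208). The call between the Pml backgrounds was lost in 5 of 11 other settings. These were 6 h alone (0.27, adjusted p = 0.0714), 12 h alone (0.23, adjusted p = 0.477) and batch 3 alone (0.20, adjusted p = 0.260). No batch term (0.25, adjusted p = 0.0503) and another prior (0.25, adjusted p = 0.0507) also ended it. The call between the Pml backgrounds was lost in 7 of 12 refits that each left out 1 untreated array (0.20 to 0.26, adjusted p from 0.0552 to 0.217), namely without Pml null replicates 1 and 4 at 6 h and 1 at 12 h, and without Pml wild type replicates 2 and 3 at 6 h and 1 and 2 at 12 h.

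Cdkn2b, which encodes p15Ink4b, a target of transforming growth factor beta signalling in many cells, ran from 6.28 to 7.08 over the 72 arrays and was called in none of the 12 comparisons. In PLZF/RARA at 6 h it stood at 7.07, 6.79, 6.64 and 6.72 on RA arrays, against 6.47 and 6.37 on untreated arrays (0.38 ± 0.12, adjusted p = 0.0929). Its 12 h levels were 6.47, 6.51, 6.57 and 6.63 on RA arrays, against 6.77 and 6.80 on untreated arrays (-0.24 ± 0.12, adjusted p = 0.342). Both pairs were apart, in opposite directions. The change of the RA effect between the times, -0.62 ± 0.17, had an adjusted p of 0.145.

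Cdkn1c, the Cip/Kip inhibitor p57Kip2 and an imprinted gene that keeps blood stem cells quiescent, was called with RA in transgenic PML/RARA leukaemia and, in the fit as reported, in no other. At 6 h its lowest, median and highest levels there were 7.18, 7.49 and 7.92 on RA arrays, against 6.77, 6.62, 6.73 and 6.68 on untreated arrays. At 12 h they were 7.47, 7.82 and 8.07 on RA arrays, against 6.81, 6.60, 7.12 and 6.93 on untreated arrays. The groups did not overlap at either time. Cdkn1c rose by 0.81 ± 0.13 at 6 h (1.75-fold, adjusted p = 1.59e-05) and by 0.92 ± 0.12 at 12 h (1.90-fold, adjusted p = 5.09e-07). The 6 h change was 0.87 in batch 1 and 0.72 in batch 2.

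In PLZF/RARA Cdkn1c stood at 6.85, 6.57, 6.58 and 6.58 on RA arrays at 6 h, against 6.29 and 6.50 on untreated arrays. At 12 h it stood at 6.37, 6.65, 6.73 and 6.55 on RA arrays, against 6.79 and 6.77 on untreated arrays. The RA arrays lay above the untreated ones at 6 h and below them at 12 h, and neither change was called (0.25 ± 0.17 with adjusted p = 0.539, and -0.20 ± 0.17 with adjusted p = 0.628). The RA effect was larger in PML/RARA than in PLZF/RARA by 0.84 ± 0.15 averaged over both times (adjusted p = 0.000378). At 6 h alone the difference was 0.56 with an adjusted p of 0.213.

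In the viral model, which carries the same PML/RARA fusion, the Cdkn1c changes were 0.12 ± 0.08 and -0.03 ± 0.12 in the leukaemia labelled Pml null, and 0.23 ± 0.08 and 0.12 ± 0.12 in the Pml wild type leukaemia at 6 h and 12 h. None was called (adjusted p from 0.0867 to 0.971). Without Pml wild type RA replicate 6, the 6 h change there was 0.27 with an adjusted p of 0.0213, which reached 0.304 over the 12 refits that each left out 1 array (0.18 to 0.28). That 6 h change was also called in 2 of 10 other settings. These were another quantile normalization (0.23, adjusted p = 0.0268) and array weights (0.25, adjusted p = 0.0123). Erythroid markers moved with RA in the same transgenic leukaemia. Of 10 listed, 5 were measured as single genes (among them Klf1 and Slc4a1, a transcription factor and a membrane transporter of red cells), of which 1 rose at 6 h and 5 at 12 h. Their mean log2 level ran from 8.38 to 10.28 on RA arrays and from 7.91 to 9.38 on untreated arrays. On PLZF/RARA arrays it ran from 6.12 to 6.90 with RA and from 6.16 to 6.63 untreated, and on the viral arrays from 6.17 to 7.41. Other marker lists moved too in transgenic PML/RARA with RA, where 9.88% of all genes rose and 11.7% fell at 12 h. At 12 h 3 of 9 stroma and endothelium markers and 3 of 9 monocyte and macrophage markers rose and 0 fell, 1 of 6 megakaryocyte markers rose, 2 of 7 promyelocyte markers rose and 4 fell, 1 of 8 B cell markers rose and 1 fell, and 0 of 7 T and NK cell markers were called. The part of these markers in the changes of Cdkn1c, Rbl1 and Lmnb1 in this leukaemia was not tested.

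**Figure D4:**
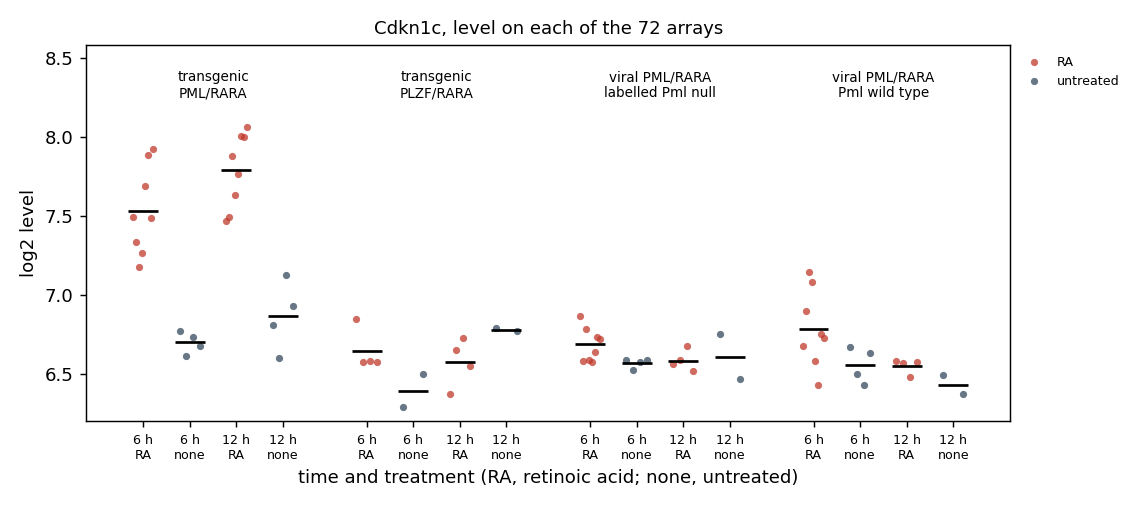
Cdkn1c log2 level on each of the 72 arrays, by leukaemia, time and treatment. Points are arrays and black lines group means. The 16 RA arrays of transgenic PML/RARA, from 7.18 to 8.07, lie above their untreated arrays, while every other group lies at or below 7.14.

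Cdkn1b, which encodes p27Kip1, an inhibitor that accumulates in resting cells largely through control of its degradation, was bright and steady. Its levels ran from 9.97 to 10.80 over the 72 arrays, and its 8 RA changes from 0.00 to 0.34, with none called in the fit as reported. The largest was that in viral Pml wild type at 12 h, where it stood at 10.64, 10.78, 10.56 and 10.75 on RA arrays, against 10.45 and 10.24 on untreated arrays (0.34 ± 0.13, adjusted p = 0.138). Those arrays did not overlap. With array weights that change (0.34, adjusted p = 0.0252) and the one in transgenic PML/RARA at 6 h (0.17, adjusted p = 0.0123) were called. Over 10 other settings the change in transgenic PML/RARA at 6 h ran from -0.23 to 0.19. Among untreated arrays its lowest, median and highest levels were 10.44, 10.52 and 10.64 in PML/RARA, against 10.27, 10.08, 10.25 and 9.97 in PLZF/RARA. The groups were apart, and the difference of 0.37 ± 0.08 was called (adjusted p = 0.000448). The other, dimmer probe set of Cdkn1b gave 0.21 with an adjusted p of 0.403.

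Rbl1, the pocket protein p107, which pairs mainly with the repressor E2F4 and is itself made in cycling cells, fell in transgenic PML/RARA and in the viral leukaemia labelled Pml null. Its promoter, with that of Cdkn2d and the upstream of 2 promoters of Cdkn2c, is given as the 250 bases before the transcription start in RefSeq (mouse build GRCm38.p6, each on the minus strand), because these genes carried the most calls. Capitals mark an E2F motif, TTTCGCGC, and the sequences without capitals hold none of the motifs searched.
Rbl1, chr2:157204535-157204784: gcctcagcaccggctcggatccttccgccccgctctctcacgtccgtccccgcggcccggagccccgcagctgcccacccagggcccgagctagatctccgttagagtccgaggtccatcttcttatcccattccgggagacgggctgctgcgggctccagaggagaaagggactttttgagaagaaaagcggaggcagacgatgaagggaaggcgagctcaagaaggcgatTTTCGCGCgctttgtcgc
Cdkn2d, chr9:21291210-21291459: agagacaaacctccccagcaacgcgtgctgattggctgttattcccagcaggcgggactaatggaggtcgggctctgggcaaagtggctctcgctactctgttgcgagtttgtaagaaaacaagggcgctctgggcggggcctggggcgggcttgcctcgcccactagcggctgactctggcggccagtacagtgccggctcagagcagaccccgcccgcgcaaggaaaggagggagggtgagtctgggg
Cdkn2c, chr4:109666757-109667006: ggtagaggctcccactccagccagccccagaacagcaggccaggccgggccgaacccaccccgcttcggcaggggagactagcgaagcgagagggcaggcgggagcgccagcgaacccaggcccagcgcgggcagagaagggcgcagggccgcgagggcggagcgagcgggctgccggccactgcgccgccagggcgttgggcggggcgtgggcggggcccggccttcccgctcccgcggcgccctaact

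The motifs searched on both strands were the E2F motif as TTTCGCGC or TTTGGCGC, the CHR element TTTGAA of cell cycle genes, and 2 AGGTCA copies 5 bases apart, the arrangement that RA receptors bind. In Rbl1 the E2F motif lay at positions -18 to -11 from the start. The windows searched had 300 bases, the 250 printed before the start and the 50 that follow it. Of 32851 such mouse windows, 0.813% held that motif, 17.9% the CHR element and 0.00913% the spaced AGGTCA pair. Among the other members searched, Cdkn2b and Rbl2 held a CHR element on the opposite strand, at -161 to -156 and at -201 to -196. Cdkn1c had no promoter entry, and the search of members left out chromosome 18, which holds Lmnb1. A match describes the letters of the window and nothing more.

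Rbl1 in transgenic PML/RARA at 6 h had lowest, median and highest levels of 9.89, 10.04 and 10.37 on RA arrays, against 10.53, 10.51, 10.30 and 10.44 on untreated arrays. At 12 h these were 9.31, 9.64 and 10.06 on RA arrays, against 10.40, 10.66, 10.16 and 10.31 on untreated arrays. The groups overlapped at 6 h and were apart at 12 h. Rbl1 fell by 0.34 at 6 h (SE 0.11, 1.27-fold lower, adjusted p = 0.0340) and by 0.73 at 12 h (SE 0.11, 1.66-fold lower, adjusted p = 2.98e-06).

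The 6 h call of Rbl1 was fragile. Within batch 1 the change was -0.33 (adjusted p = 0.216) and within batch 2 it was -0.36 (adjusted p = 0.0325). It was lost in 7 of 12 refits that each left out 1 array (-0.38 to -0.31, adjusted p from 0.0522 to 0.165), namely without RA replicates 1, 6 and 8 and without each of the 4 untreated replicates. No refit of this kind ended the 12 h call. In PLZF/RARA the changes were -0.02 ± 0.15 at both times. There the levels were 10.35, 9.96, 10.09 and 9.73 on RA arrays at 6 h, against 10.07 and 10.03 on untreated arrays. The RA effect was lower in PML/RARA by 0.51 (-0.51 ± 0.13, adjusted p = 0.0129), and the adjusted p was 0.0529 without untreated PLZF/RARA replicate 2 at 12 h (-0.50). At 6 h alone the difference was -0.32 with an adjusted p of 0.486.

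In the viral leukaemia labelled Pml null, Rbl1 at 6 h had lowest, median and highest levels of 9.55, 9.88 and 10.13 on RA arrays, against 10.41, 10.38, 9.88 and 10.13 on untreated arrays. The groups overlapped. Rbl1 fell by 0.31 (SE 0.10, adjusted p = 0.0444), with -0.19 in batch 3 (adjusted p = 0.694) and -0.43 in batch 4 (adjusted p = 0.0808). The call was lost in 9 of 12 refits that each left out 1 array (-0.32 to -0.26, adjusted p from 0.0506 to 0.207), those without RA replicates 1, 3, 4, 5, 7 and 8 and without untreated replicates 1, 2 and 4. At 12 h the change was -0.35 ± 0.14 (adjusted p = 0.189), and in Pml wild type leukaemia the changes were -0.14 ± 0.10 and -0.15 ± 0.14 (adjusted p = 0.507 and 0.744). The difference between the Pml backgrounds was -0.18 ± 0.12 (95% interval -0.44 to 0.07, adjusted p = 0.937).

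Among untreated arrays Rbl1 had lowest, median and highest levels of 10.16, 10.42 and 10.66 in PML/RARA, against 10.07, 10.03, 10.07 and 10.00 in PLZF/RARA. The groups were apart, by 0.34 ± 0.11 (adjusted p = 0.0221). That call was lost without untreated PLZF/RARA replicate 1 or 2 at 6 h or replicate 2 at 12 h (0.32 to 0.35, adjusted p from 0.0548 to 0.0740), at 6 h alone (0.33, adjusted p = 0.200) and at 12 h alone (0.35, adjusted p = 0.130).

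Rb1, the retinoblastoma protein itself, ran from 9.81 to 10.78 over the 72 arrays. It was called with RA in the viral leukaemia labelled Pml null at 6 h, where its lowest, median and highest levels were 9.91, 10.23 and 10.48 on RA arrays, against 10.78, 10.78, 10.67 and 10.36 on untreated arrays. The groups overlapped. Rb1 fell by 0.43 (SE 0.12, 1.35-fold lower, adjusted p = 0.0128), with -0.43 in both batch 3 (adjusted p = 0.368) and batch 4 (adjusted p = 0.0494). Without untreated replicate 3 the change was -0.38 with an adjusted p of 0.0615. At 12 h it pointed the other way, with 10.77, 10.62, 10.78 and 10.50 on RA arrays, against 10.35 and 10.33 on untreated arrays (0.33 ± 0.16, adjusted p = 0.323).

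The change of the Rb1 effect between the times, 0.76 ± 0.20, had an adjusted p of 0.264. With array weights the Rb1 change in transgenic PML/RARA at 12 h was called (0.32, adjusted p = 0.00767). In the fit as reported it was 0.21 ± 0.10 (adjusted p = 0.161), and it moved with the untreated array left out. The change was 0.29 without untreated replicate 1 (adjusted p = 0.0491), 0.32 without replicate 2 (adjusted p = 0.0282), 0.09 without replicate 3 (adjusted p = 0.694) and 0.13 without replicate 4 (adjusted p = 0.515). Among untreated arrays Rb1 had lowest, median and highest levels of 9.92, 10.36 and 10.61 in PML/RARA, against 10.12, 10.06, 9.90 and 9.99 in PLZF/RARA. These overlapped, and the difference of 0.32 ± 0.10 was called (adjusted p = 0.0217). It was lost without PLZF/RARA replicate 2 at 6 h or 1 at 12 h, and without PML/RARA replicate 2 at 12 h (0.26 to 0.30, adjusted p from 0.0514 to 0.0829). Each time alone, batch 1 alone and a fit of only the groups compared also ended it (0.29 to 0.33, adjusted p from 0.0605 to 0.212).

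Rbl2, the pocket protein p130, which forms the DREAM repressor complex with E2F4 and MuvB in resting cells, did not change with RA in any call, its 8 changes lying between -0.15 and 0.14. Among untreated arrays its lowest, median and highest levels were 9.41, 9.57 and 9.74 in PML/RARA, against 9.95, 9.83, 9.82 and 9.77 in PLZF/RARA. They were 9.59, 9.78 and 9.92 in the viral leukaemia labelled Pml null, against 9.33, 9.42 and 9.74 in the Pml wild type leukaemia. The transgenic groups were apart and the viral groups overlapped. Rbl2 was lower in PML/RARA by 0.29 (-0.29 ± 0.07, adjusted p = 0.00117) and higher in the leukaemia labelled Pml null by 0.28 ± 0.10 (adjusted p = 0.0328). The second call was lost without Pml null replicate 4 at 6 h or 1 at 12 h, and without Pml wild type replicate 1 at 6 h or either replicate at 12 h (0.24 to 0.30, adjusted p from 0.0522 to 0.154), and with no batch term, in batch 3 alone and at each time alone (0.23 to 0.33, adjusted p from 0.0978 to 0.247). The difference between the fusions was -0.27 at 6 h alone (adjusted p = 0.0603).

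Lmnb1, lamin B1, fell in transgenic PML/RARA at 12 h. At 6 h its lowest, median and highest levels were 9.66, 9.88 and 10.07 on RA arrays, against 10.13, 10.10, 9.92 and 9.91 on untreated arrays. At 12 h they were 9.00, 9.34 and 9.66 on RA arrays, against 9.83, 10.12, 10.07 and 9.95 on untreated arrays. The groups overlapped at 6 h and were apart at 12 h. The change was -0.11 ± 0.11 at 6 h (adjusted p = 0.601), and Lmnb1 fell by 0.66 at 12 h (SE 0.10, 1.58-fold lower, adjusted p = 8.69e-06). The test of 12 h against 6 h gave -0.55 ± 0.15 with an adjusted p of 0.138.

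In PLZF/RARA Lmnb1 stood at 10.20, 9.90, 9.91 and 9.66 on RA arrays at 6 h, against 9.68 and 9.71 on untreated arrays. At 12 h it stood at 9.95, 9.71, 9.85 and 9.59 on RA arrays, against 9.77 and 9.62 on untreated arrays. These groups overlapped, with changes of 0.23 ± 0.15 and 0.08 ± 0.15 that were not called. The RA effect was lower in PML/RARA by 0.54 on average (-0.54 ± 0.13, adjusted p = 0.00653), and at 6 h alone the difference was -0.34 with an adjusted p of 0.422. In the viral model the 4 changes lay between -0.37 and -0.03 and none was called. At 12 h in the leukaemia labelled Pml null the levels were 9.63, 9.26, 9.43 and 9.17 on RA arrays, against 9.80 and 9.69 on untreated arrays (-0.37 ± 0.18, adjusted p = 0.284), and the groups were apart. Among untreated arrays the difference between the fusions was 0.28 ± 0.11 with an adjusted p of 0.0539. It was called under 6 of 11 other settings (adjusted p from 0.0194 to 0.330 over the 11) and without untreated PML/RARA replicate 1 at 12 h (0.31, adjusted p = 0.0378).

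**Figure D5:**
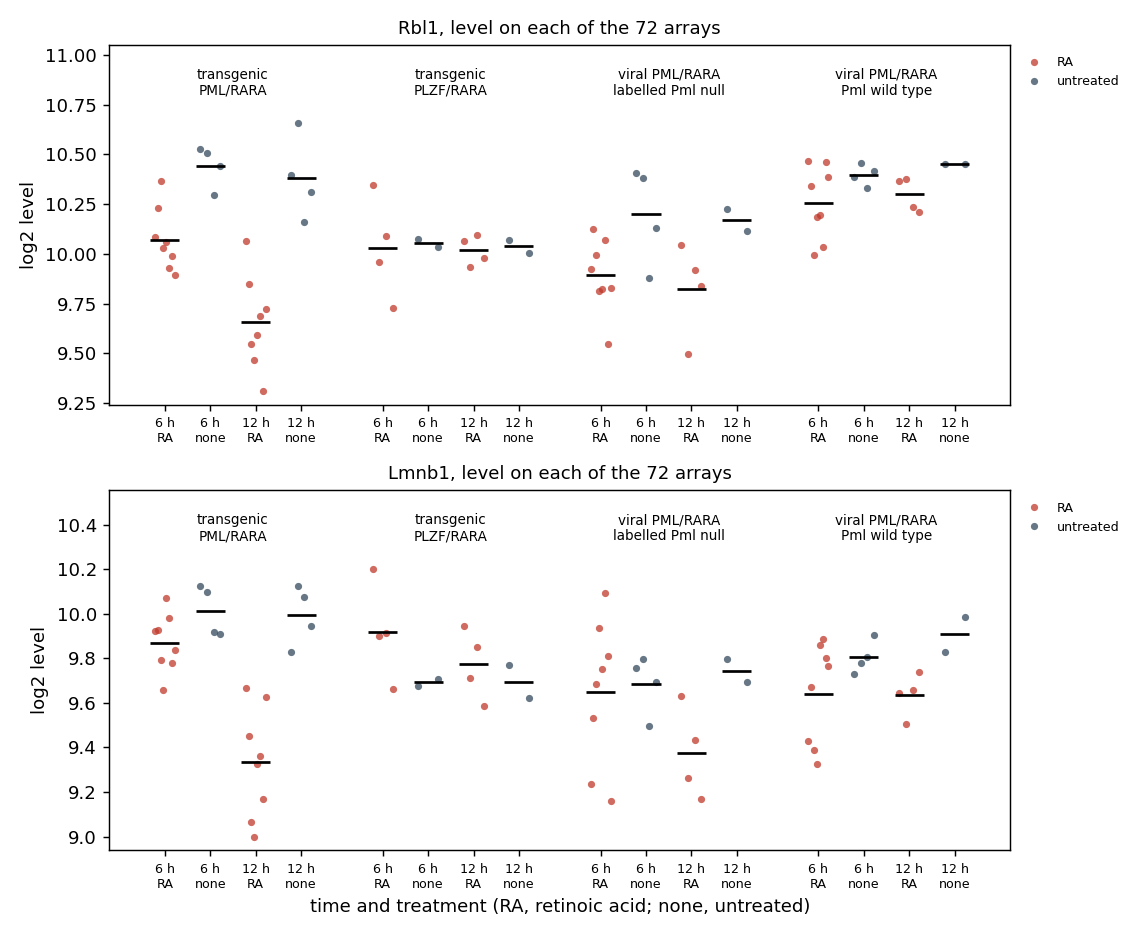
Rbl1 (top) and Lmnb1 (bottom) log2 level on each of the 72 arrays, by leukaemia, time and treatment. Points are arrays and black lines group means. In transgenic PML/RARA at 12 h the RA arrays of both genes sit below the untreated arrays, and the PLZF/RARA groups overlap.

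Over the comparison of fusions before treatment, 4 of the 10 genes were higher in PML/RARA (Cdkn2c, Cdkn1b, Rb1 and Rbl1) and 2 lower (Cdkn2a and Rbl2), where 13.1% of all genes were higher and 12.2% lower. The median difference of the 10 was 0.30, against 0.01 for all genes. Every marker list also moved between the fusions. Erythroid markers were higher in untreated PML/RARA in 5 of 5, with a mean level of 7.91 to 9.38, against 6.16 to 6.63 in PLZF/RARA. Of 6 megakaryocyte markers 5 were higher and 1 lower, and of 9 stroma and endothelium markers likewise 5 and 1. Of 9 monocyte and macrophage markers 4 were higher and 2 lower, of 7 T and NK cell markers 4 and 1, of 8 B cell markers 3 and 0, and of 7 promyelocyte markers 4 and 0. The part of these markers in the differences was not tested. Between Pml backgrounds before treatment, 2 of the 10 were higher in the leukaemia labelled Pml null (Cdkn2a and Rbl2) and 1 lower (Cdkn2c), where 10.9% of all genes were higher and 9.92% lower. There 5 of 9 monocyte and macrophage markers were lower, their mean level running from 7.99 to 8.48, against 8.71 to 9.34 in Pml wild type. Of 7 promyelocyte markers 3 were higher and 4 lower, of 8 B cell markers 2 and 1, of 7 T and NK cell markers 1 and 2, of 6 megakaryocyte markers 0 and 2, of 9 stroma and endothelium markers 1 and 0, and of 5 erythroid markers 0 and 0. Their part in the differences was not tested either.

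The RA effects of the fusions differed in 4 of the 10 genes. Cdkn1c had the higher effect in PML/RARA, and Cdkn2c, Rbl1 and Lmnb1 the lower, where 3.35% of all genes had a higher and 4.07% a lower effect. No member was called by limma in the tests of 12 h against 6 h. The unadjusted p was below 0.05 for 2 of the 10 in each of transgenic PML/RARA, PLZF/RARA and the leukaemia labelled Pml null, and for 0 in Pml wild type. Few genes of any kind were called there: 0.16% higher and 0.0702% lower in transgenic PML/RARA, 0.0201% and 0.00502% in PLZF/RARA, 0.0301% and 0.00502% in the leukaemia labelled Pml null, and 0 in both directions in Pml wild type.

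Genes around the 10 in the same circuit were read from lists of textbook members, chosen with earlier results of these data known. The shares of all genes called in each comparison, given above, are the measure for these counts too. In transgenic PML/RARA 5.81% of all genes rose and 8.54% fell at 6 h, and 9.88% rose and 11.7% fell at 12 h. No list was tested against these shares. The E2F target genes of S phase, 17 of 18 measured, gave 0 up and 9 down with RA in transgenic PML/RARA at 6 h and 0 up and 16 down at 12 h, with median changes of -0.32 and -0.65. In PLZF/RARA 0 were called in either direction at both times, with medians of 0.18 and -0.08, and the RA effect was lower in PML/RARA for 12 of the 17. Pole, the catalytic subunit of a replicative DNA polymerase, fell by 1.03 at 12 h in PML/RARA (SE 0.12, adjusted p = 2.27e-08), and Ung, which removes uracil from DNA, fell by 0.75 (SE 0.09, adjusted p = 1.33e-07). In the viral leukaemias 1 rose and 1 fell at 6 h and 0 were called at 12 h where labelled Pml null, and 1 rose and 0 fell at each time in Pml wild type.

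Of the 10 E2F and DP factors, 5 fell at 6 h and 6 at 12 h in transgenic PML/RARA, and 0 rose. E2f1, an activator of S phase genes, fell by 0.61 at 6 h (SE 0.10), and E2f8, a repressor of the same family, fell by 0.71 (SE 0.11). In PLZF/RARA 0 were called at 6 h, and at 12 h 1 fell, E2f8, by 0.63 (SE 0.16, adjusted p = 0.0119). In the leukaemia labelled Pml null 1 rose and 4 fell at 6 h and 0 rose and 1 fell at 12 h, and in Pml wild type 1 rose and 1 fell at each time. Of the 12 G1 cyclins, kinases and their activators, 2 fell at 6 h and 4 at 12 h in transgenic PML/RARA. Among them Cdk4, the kinase that INK4 proteins bind, fell at 12 h by 0.44 in transgenic PML/RARA, by 0.37 in the leukaemia labelled Pml null and by 0.38 in Pml wild type. In PLZF/RARA 0 of the 12 were called. In the leukaemia labelled Pml null 1 of the 12 rose and 0 fell at 6 h and 1 rose and 2 fell at 12 h, and in Pml wild type 2 rose and 1 fell at 6 h and 1 rose and 1 fell at 12 h. Of the 8 MuvB and DREAM partners, 0 were called at 6 h and 5 fell at 12 h in transgenic PML/RARA, among them Foxm1, a driver of mitotic genes (-0.48 ± 0.09). In the other leukaemias 1 of the 8 was called, a rise in the leukaemia labelled Pml null at 6 h. Of 13 measured mitosis genes, 1 rose at 6 h in each of transgenic PML/RARA, PLZF/RARA and the leukaemia labelled Pml null, and 2 rose in Pml wild type, among them the checkpoint kinase Bub1b (0.29 ± 0.06, adjusted p = 0.00175), with 0 falling at 6 h. At 12 h 6 fell in transgenic PML/RARA and 2 in the leukaemia labelled Pml null, with 0 called in PLZF/RARA and Pml wild type, and 0 rose.

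Among 21 regulators of the inhibitors, 2 rose and 6 fell at 6 h, and 4 rose and 7 fell at 12 h in transgenic PML/RARA, while 0 were called in PLZF/RARA. In the leukaemia labelled Pml null 3 rose and 3 fell at 6 h and 2 rose and 0 fell at 12 h, and in Pml wild type 2 rose and 0 fell at each time. Kdm6b, a demethylase of the Polycomb mark that covers the Cdkn2a locus in many cells, rose by 0.78 ± 0.10 and 1.05 ± 0.10 in transgenic PML/RARA at 6 h and 12 h. It rose by 0.97 ± 0.09 and 1.06 ± 0.13 in the leukaemia labelled Pml null, and by 0.56 ± 0.09 and 0.61 ± 0.13 in Pml wild type. Foxo3, a factor that can activate Cdkn1b and Cdkn2d, rose by 0.90 ± 0.11 and 0.71 ± 0.10 in transgenic PML/RARA, and by 0.77 to 1.21 in the viral leukaemias. In PLZF/RARA neither gene was called (changes of 0.02 to 0.34, adjusted p from 0.274 to 0.959).

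Of 10 other lamina and nuclear envelope genes, 1 rose and 3 fell at 6 h and 2 rose and 4 fell at 12 h in transgenic PML/RARA. In the other leukaemias 1 or 2 rose and between 0 and 2 fell at each time. Lbr, the lamin B receptor, rose in all 8 RA effects, by 0.46 to 0.87, including PLZF/RARA (0.46 ± 0.13 at 6 h and 0.68 ± 0.13 at 12 h). Tmpo, another lamin-binding protein, fell in the 6 PML/RARA comparisons by 0.26 to 0.87. Of 18 measured secretory and surface genes of senescent cells, 3 rose and 0 fell at 6 h and 6 rose and 2 fell at 12 h in transgenic PML/RARA. Plaur, the urokinase receptor, rose there by 0.58 ± 0.11 and 0.75 ± 0.11, and Serpinb2, an inhibitor of urokinase, fell in Pml wild type by 1.30 at 6 h and 1.38 at 12 h (SE 0.16 and 0.23). In the other leukaemias between 0 and 2 of these genes rose and between 0 and 2 fell at each time.

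Over the 72 arrays, with each gene centred within its batch, the profiles most like that of Cdkn2d were those of Irak2 (r = 0.934) and Rel (r = 0.934), a kinase and a transcription factor of inflammatory signalling. For Rbl1 they were Rad54b (r = 0.902) and Fancm (r = 0.883), both of DNA repair, and for Lmnb1 they were Rrm1 (r = 0.876), a subunit of ribonucleotide reductase, and Smc1a (r = 0.864), a cohesin subunit. Cdkn1c was most like Fzd3 (r = 0.867) and Fbxo16 (r = 0.866), Cdkn2c like Cox6c (r = 0.865) and Scp2 (r = 0.849), and Cdkn1b like Tbc1d23 (r = 0.872) and Tm2d2 (r = 0.836). Rb1 was most like Stradb (r = 0.815) and Lrrk2 (r = 0.793), Rbl2 like Cabcoco1 (r = 0.825) and Agbl3 (r = 0.804), and Cdkn2a like Stc2 (r = 0.795) and Fdx1 (r = 0.793). Cdkn2b had the weakest partners, Fam171a2 (r = 0.634) and Slc47a2 (r = 0.634). Among the 10 themselves the highest correlations were those of Rbl1 with Lmnb1 (r = 0.654), Cdkn2c with Rbl1 (r = 0.643) and Cdkn1b with Cdkn1c (r = 0.605). The arrays share treatment, leukaemia and scaling, so these coefficients describe likeness of profile across groups.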

How the data were processed

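RNA levels in bone marrow of mice with APL came from 72 arrays (Affymetrix Mouse Gene 1.0 ST). The deposited table holds log2 probe set levels that the authors had made with RMA in affy, per the submitters' processing notes. The version of each is not given in the sources used here. RMA subtracts background, scales the probe values of all arrays to 1 distribution and summarises probes, so a shift shared by most genes is largely removed. The median probe set level of an array still ran from 6.56 to 6.81. The highest was that of RA replicate 1 of PLZF/RARA at 6 h. Of 35556 probe sets, 23410 were listed in the platform annotation, 21789 with 1 symbol and 1621 with several. The brightest probe set of each symbol was kept, which gave 19938 genes.

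Each model's 36 arrays were fitted with limma 3.58.1 in R 4.3.3, with group and batch as terms and 27 residual degrees of freedom, and p-values were adjusted by Benjamini-Hochberg over all genes. The batches are those the labels name, and transgenic and viral arrays share none. Transgenic PML/RARA arrays at 6 h lie in batches 1 and 2 and all other transgenic arrays in batch 1. Viral arrays at 6 h lie in batches 3 and 4 and those at 12 h in batch 3. Replicate numbers only name arrays. The scripts were tested on simulated data. No 2 arrays held identical values. Arrays give no counts, so their number limits the precision.

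The 10 genes and all lists were chosen with earlier results of these data known. The text names every member, up to 2 genes per list with the largest moderated t over the RA effects, and the 2 genes per member with the highest correlation. Alternatives were another normalization, other batch terms, array weights, another prior, a filter on dim genes, subsets of arrays, single times, the other Cdkn1b probe set and leaving out each array. Promoters came from RefSeq for members called in over 2 of 12 comparisons. Cdkn1c, which also met that rule, had no entry. The search of members left out chromosome 18, so the promoter of Lmnb1 was neither searched among them nor printed.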

Additional observations from a re-analysis of the deposited data

Results flagged for a closer look

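Of 120 tests, each of 1 gene in 1 of the 12 groups of 4 to 8 arrays, 4 found an array far from the others of its group by Dixon's test at the 95% level, which chance alone meets in about 5% of tests. Cdkn1c stood at 6.85 on RA replicate 1 of PLZF/RARA at 6 h, above the others of that group. Cdkn1c stood at 6.48 on RA replicate 3 of viral Pml wild type at 12 h, below the others. Cdkn2b stood at 6.47 on untreated replicate 2 of transgenic PML/RARA at 6 h, below the others. Rb1 stood at 10.18 on RA replicate 7 of transgenic PML/RARA at 12 h, below the others.

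The RA effect differed between leukaemias, by limma's test of the difference averaged over both times, in 5 cases. Between PML/RARA and PLZF/RARA the difference was -0.59 for Cdkn2c, 0.84 for Cdkn1c, -0.51 for Rbl1 and -0.54 for Lmnb1. Between the leukaemias labelled Pml null and Pml wild type it was -0.68 for Cdkn2c.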

How the results depend on the processing

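No called value changed sign under any alternative run. With array weights, whose estimation did not reach its convergence tolerance in a fit, the members called went to 5 in transgenic PML/RARA at 6 h (3 as reported), 2 in the leukaemia labelled Pml null at 12 h (1), 3 and 2 in Pml wild type at 6 h and 12 h (1 each) and 5 between untreated Pml backgrounds (3). Another quantile normalization gave 2 in Pml wild type at 6 h, where it added Cdkn1c. In transgenic PML/RARA at 12 h array weights added Cdkn2a and Rb1 to the calls, and another quantile normalization added Cdkn2a. Smaller shifts of these counts are not all listed. A fit of only the groups compared gave 0 in Pml null at 12 h and 5 between untreated Pml backgrounds. Batch 3 alone gave 1 in Pml null at 6 h (3), 1 between untreated Pml backgrounds and 0 for the RA effect between Pml backgrounds (1), and no batch term gave 1 between untreated Pml backgrounds. At 6 h alone and 12 h alone the counts were 2 and 3 between untreated fusions (6), 1 and 1 between untreated Pml backgrounds, and 0 and 0 for the RA effect between Pml backgrounds. At 6 h alone 0 differed in RA effect between fusions (4). Leaving out each array in turn gave 2 to 3 in transgenic PML/RARA at 6 h, 4 to 6 at 12 h, 0 to 1 in PLZF/RARA at 6 h, 2 to 3 in Pml null at 6 h, 1 to 2 in Pml wild type at 6 h, 4 to 7 between untreated fusions, 1 to 3 between untreated Pml backgrounds, 2 to 4 for the RA effect between fusions and 0 to 1 between Pml backgrounds. Without 1 array, 59 single-gene calls were lost and 7 gained. Of the other values 65, not called in either fit, changed sign and 1549 kept sign and call. Under other settings 36 calls were lost and 22 gained, 34 uncalled values changed sign and 1098 kept both. Smaller subsets hold fewer arrays by construction, and beyond that the cause was not tested. No paired analysis was possible because the replicate numbers only name arrays. The PLZF/RARA groups and the viral 12 h groups have 2 untreated arrays each, which limits their tests.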
